A study of Mus musculus with 22 samples.

Results

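Collagen genes were taken as the rows whose name is Col, digits, a and digits, with Col17a1 left out, which gave 43 of the 49671 genes in the deposited table. Of these 43 genes, 28 had a value of 10 or more in at least 2 of the 22 libraries and were tested. The other 15 were not, and 12 genes stayed below 10 in every library. Col9a1, Col13a1 and Col28a1 were listed at 0 in all 22 libraries.

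Collagens are secreted proteins in which alpha chains wind into a triple helix. Fibrillar collagens form the fibres of connective tissue, collagen IV forms the network of basement membranes, and smaller families decorate fibrils, anchor epithelium or span the cell membrane. Epithelial cells are known for making basement membrane collagens, whereas type I and type III collagen are textbook products of mesenchymal cells, including epithelial tumour cells that have gone through an epithelial-mesenchymal transition. EPCAM is an epithelial adhesion molecule at the cell surface.

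The 22 RNA-seq libraries came from mouse cell lines grown from 1 kind of primary tumour, whose genotype was Lgr5CreER, KrasLSL-G12D, p53fl/fl and Rosa26-YFP+/+. In this model Cre is driven from Lgr5, and the control line and all knockout lines share these alleles. CRISPR/Cas9 knockout lines of Pitx1, Klf5, Nfatc1 or Creb3l1, which all encode transcription factors, were made from them. Living single mCherry+ YFP+ cells were sorted by FACS into EPCAM+ and EPCAM- cells. Each of the 5 lines (control, Pitx1KO, Klf5KO, Nfatc1KO and Creb3l1KO) gave both fractions at day 8, and the control line also gave EPCAM+ cells at day 0. Every one of these 11 groups had 2 libraries. What begins at day 0 is not given in the labels, nor whether a knockout line is 1 clone. They are also silent on whether libraries of the same group were made from different cultures, so p-values measure only the spread between these samples, which may be technical.

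The deposited values behaved as read counts scaled to a common library total and rounded up to a whole number, which the labels do not state. On that reading 1 read was worth 2.02 to 3.30 units. Libraries then held 6054919 to 9882692 reads in genes, and a value of 10 stood for 3 to 4 reads. Epcam was 90 to 735 in the EPCAM- libraries and 3702 to 7320 in the EPCAM+ libraries, and Vim was 30486 to 67534 against 2332 to 16658. At day 8 Pitx1 was 1205 to 1627 in Pitx1KO and 4358 to 6438 in control libraries, and Nfatc1 was 182 to 249 in Nfatc1KO and 488 to 981 in control libraries. Klf5 was 1961 to 2247 in libraries labelled Klf5KO and 1733 to 2941 in control libraries, so the level of its transcript did not separate these groups. Creb3l1 was 137 and 26 in control EPCAM- libraries, 12 and 7 in the control libraries of day 0, and 0 to 8 in all others.

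Promoter sequences are shown for 3 of the collagen genes that differed between the fractions and had a window in RefSeq (build GRCm38.p6), Col5a1, Col11a1 and Col23a1. Their windows end just before the annotated start of the gene. Col4a5 and Col5a3 also had a window and are not shown. Each window is the 250 bases before the RefSeq start, on the plus strand, at chr2:27886175-27886424 for Col5a1, chr3:114030290-114030539 for Col11a1 and chr11:51289670-51289919 for Col23a1. Capitals mark a CCAAT box (CCAAT or ATTGG) or a GC box (GGGCGG or CCGCCC).
Col5a1: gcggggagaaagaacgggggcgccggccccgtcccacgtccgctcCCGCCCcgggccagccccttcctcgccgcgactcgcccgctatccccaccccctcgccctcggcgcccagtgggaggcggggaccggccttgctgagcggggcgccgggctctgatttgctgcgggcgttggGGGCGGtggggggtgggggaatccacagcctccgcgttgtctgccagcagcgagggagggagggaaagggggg
Col11a1: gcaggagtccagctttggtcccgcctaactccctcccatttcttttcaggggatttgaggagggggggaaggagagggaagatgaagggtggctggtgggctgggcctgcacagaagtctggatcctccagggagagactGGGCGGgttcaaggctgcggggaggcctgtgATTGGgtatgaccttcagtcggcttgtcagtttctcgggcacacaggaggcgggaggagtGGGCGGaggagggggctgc
Col23a1: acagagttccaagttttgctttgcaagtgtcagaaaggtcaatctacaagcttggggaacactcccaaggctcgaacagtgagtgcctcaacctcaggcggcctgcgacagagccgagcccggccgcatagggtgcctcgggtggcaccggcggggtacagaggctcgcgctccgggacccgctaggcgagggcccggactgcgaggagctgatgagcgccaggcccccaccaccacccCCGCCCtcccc
The RefSeq table held a window for 34 of the 43 genes and for 23 of the 28 tested. Each motif was searched on both strands. The GC box (GGGCGG) was present in 15 of these 23 windows and in 32.7% of all 32851 windows. The CCAAT box was present in 9 of 23 windows and in 33.8% of all windows. TATAAA was found in 3 of 23 and in 12.4% of all, and the E-box CACCTG in 3 of 23 and in 17.2% of all. The letters of the 4 motifs do not contain one another. Among the 7 genes that rose in EPCAM- cells, 5 had a window, and the GC box was in 5 of 5 and the CCAAT box in 3 of 5. A match describes the letters of the window only.

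Among the tested collagen genes, levels per kb of exon spanned a wide range. The highest median over the 22 libraries was that of Col18a1, a multiplexin of basement membranes that is the source of endostatin, at 748 units per kb. It was followed by Col4a1 at 685 and its partner chain Col4a2 at 385, with Col7a1, the collagen of anchoring fibrils, at 435 between them. Col8a1, a short-chain network collagen, had 192 units per kb, and Col5a1, which sets the diameter of collagen fibrils, had 156. Col1a1, a chain of type I collagen, had 78.0 and Col16a1, a fibril-associated (FACIT) collagen, had 35.5. The highest members of the remaining classes were lower, Col23a1 of the transmembrane collagens at 3.57 and Col6a1 of the beaded filament collagens at 3.43. No gene of the class of other collagens was tested.

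Col1a2 encodes the second chain of type I collagen, and it was far below Col1a1. Its values ran from 0 to 71 over the 22 libraries, against 67 to 3666 for Col1a1. Per kb of exon the median of Col1a2 was 1.85, against 78.0 for Col1a1, and the exons of Col1a2 sum to 12426 bases over all its annotated transcripts against 6563 for Col1a1. Over the 22 libraries the log2 values of the 2 genes had a Pearson correlation of 0.40, and of -0.59 once group means were removed. Those of Col1a1 and Col5a1 had 0.89 and 0.87. These correlations share libraries and depth and are given as descriptions.

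**Figure D1:**
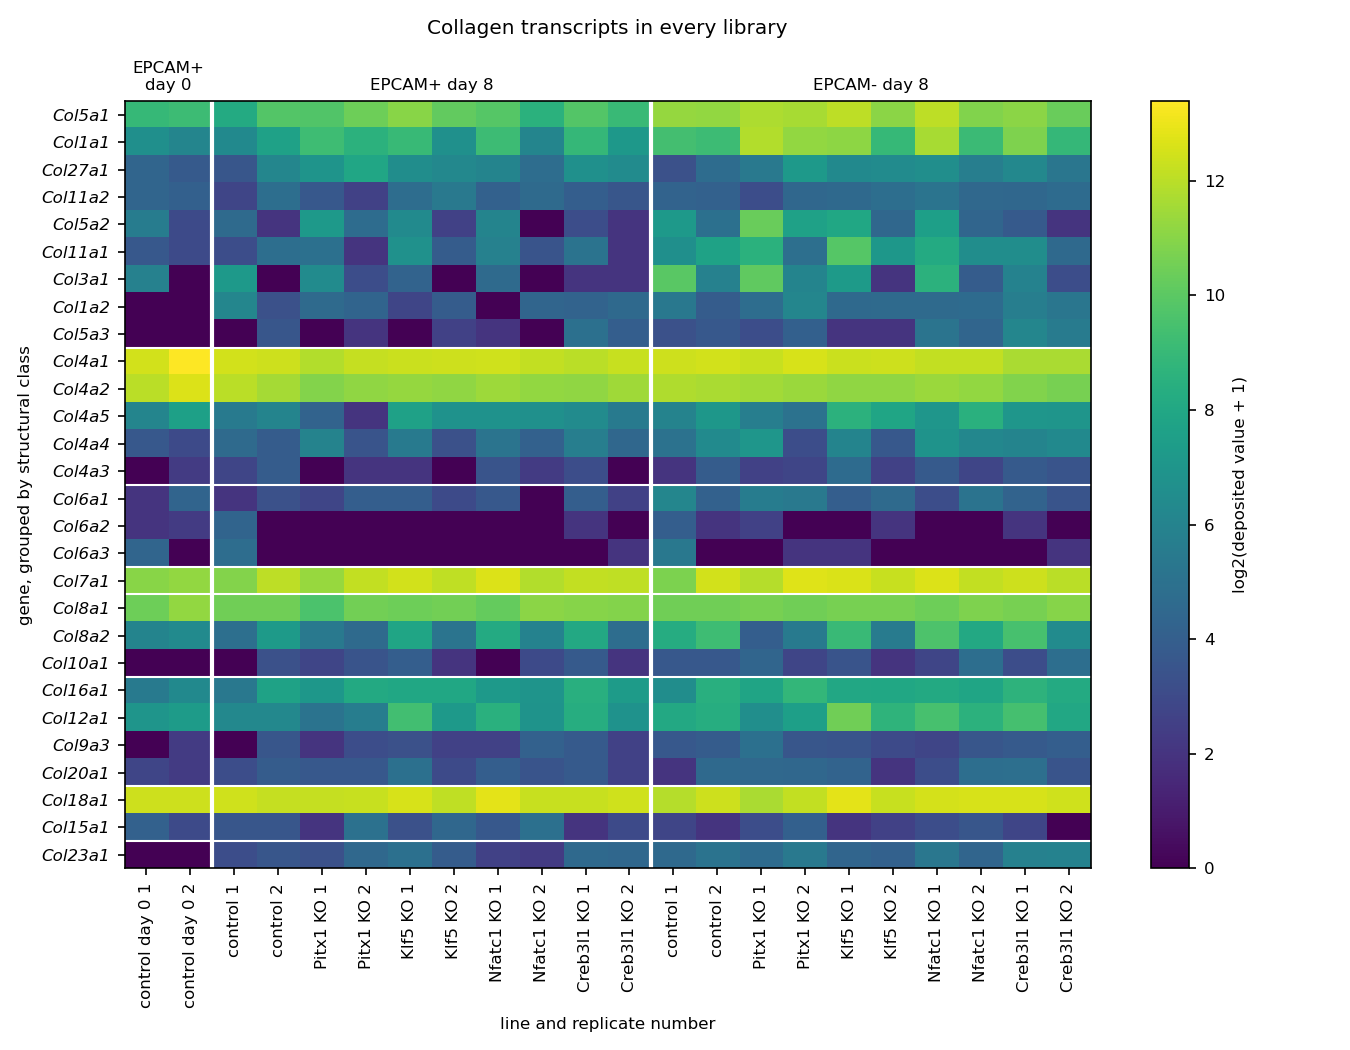
Heat map of log2(deposited value + 1) for the 28 tested collagen genes (rows, grouped by structural class, with the highest level per kb first in each class) in the 22 libraries (columns, by fraction, line and replicate number). Col4a1, Col4a2, Col7a1, Col8a1 and Col18a1 are bright in every column. The fibrillar genes at the top, apart from Col27a1 and Col11a2, are brighter on the right, in EPCAM- cells. Col27a1 was lower in EPCAM- cells in 7 of 10 pairs of the same line and replicate number, and Col11a2 in 5 of 10.

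The first comparison asked whether EPCAM- cells differ from EPCAM+ cells at day 8, over 10 libraries of each. Of the 28 tested collagen genes, 7 rose in EPCAM- cells and 0 fell, in limma on log2(value + 1) with Benjamini-Hochberg adjustment over all 19569 genes tested. Over all genes, 536 (2.74%) rose and 682 (3.49%) fell. The median log2 fold change was 1.09 over the 28 collagen genes and 0.06 over all genes tested, and 23 of the 28 were positive. Fibrillar collagens gave 4 of the 7 (Col1a1, Col5a1, Col5a3 and Col11a1 of 9 tested), and the others were Col4a5 of 5 basement membrane collagens, Col12a1 of 4 FACIT collagens and Col23a1, 1 of 3 transmembrane collagens and the only 1 of them tested. Because the labels give libraries of 1 replicate number a common batch name, a fit with that number as a block within each line was also made. There 16 of 28 rose and 0 fell, where 13.6% of all genes rose and 9.14% fell. A block common to all lines gave 10 that rose, where 5.17% of all genes did, and the block within lines on recovered reads (limma voom) gave 16, where 12.1% did.

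Col1a1 was 67, 296.5 and 589 (lowest, median and highest of 10) in EPCAM+ cells and 474, 1231 and 3666 in EPCAM- cells. The fractions overlapped, but the EPCAM- library was the higher in 10 of 10 pairs of the same line and replicate number. The ratio of means was 5.09, and the log2 fold change was 2.33 (SE 0.50, limma adjusted p = 0.0105). By line, Col1a1 went from 81 and 201 to 667 and 585 in the control line, and from 589 and 392 to 3666 and 2424 in Pitx1KO. Klf5KO cells had 520 and 104 against 2189 and 504, Nfatc1KO cells 577 and 67 against 3167 and 558, and Creb3l1KO cells 476 and 140 against 1795 and 474. The groups did not overlap in the control line and Pitx1KO. In Klf5KO, Nfatc1KO and Creb3l1KO the lower EPCAM- library was just under the higher EPCAM+ library, and the EPCAM- library was the higher within each replicate number.

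Col5a1 was 293, 891 and 2028 in EPCAM+ cells and 1270, 2394 and 4313 in EPCAM- cells. It was higher in EPCAM- cells in 10 of 10 pairs, with a log2 fold change of 1.66 (SE 0.25, limma adjusted p = 0.000863). Its exons overlap 2 annotated genes on the other strand, 2810430I11Rik and Gm13372, whose medians were 86.5 and 70.5, and whether counting used strand is not given in the sources used here. Col5a3, a minor chain of type V collagen, was 0, 3 and 30 against 3, 14 and 70, and its log2 fold change was 2.04 (SE 0.50, limma adjusted p = 0.0208). The EPCAM- library was the higher in 9 of 10 pairs of Col5a3, at values that often stand for few reads.

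Col11a1, a chain of a minor fibrillar collagen best known from cartilage, was 3, 21 and 110 in EPCAM+ cells and 23, 118 and 923 in EPCAM- cells. The log2 fold change was 2.86 (SE 0.68, limma adjusted p = 0.0199), the largest of the 7, with 10 of 10 pairs higher. The highest value, 923, belonged to Klf5KO replicate 1, and without that library the adjusted p was above the threshold. Col12a1, a FACIT collagen that lies along the surface of type I fibrils, was 33, 114 and 653 against 96, 358 and 1452, with 10 of 10 pairs higher. Its log2 fold change was 1.50 (SE 0.35, limma adjusted p = 0.0180).

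Col4a5 encodes a collagen IV chain of more restricted basement membranes. It was 3, 76 and 199 in EPCAM+ cells and 32, 131 and 394 in EPCAM- cells, with 10 of 10 pairs higher. The log2 fold change was 1.20 (SE 0.31, limma adjusted p = 0.0262). Col23a1, a collagen that spans the cell membrane, was 4, 12.5 and 30 against 17, 29 and 60, with 9 of 10 pairs higher and a log2 fold change of 1.25 (SE 0.26, limma adjusted p = 0.00637). When each of the 20 libraries was left out in turn, Col1a1, Col5a1, Col12a1 and Col23a1 were called in all 20 fits, Col11a1 in 18, Col5a3 in 17 and Col4a5 in 12. Without Creb3l1KO EPCAM+ replicate 2, 4 collagen genes were called. With voom on recovered reads and no block 6 were, among them Col6a1 but not Col11a1 and Col12a1. The share of all genes called in either fit is not given here, so these counts cannot be set against genes at large.

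**Figure D2:**
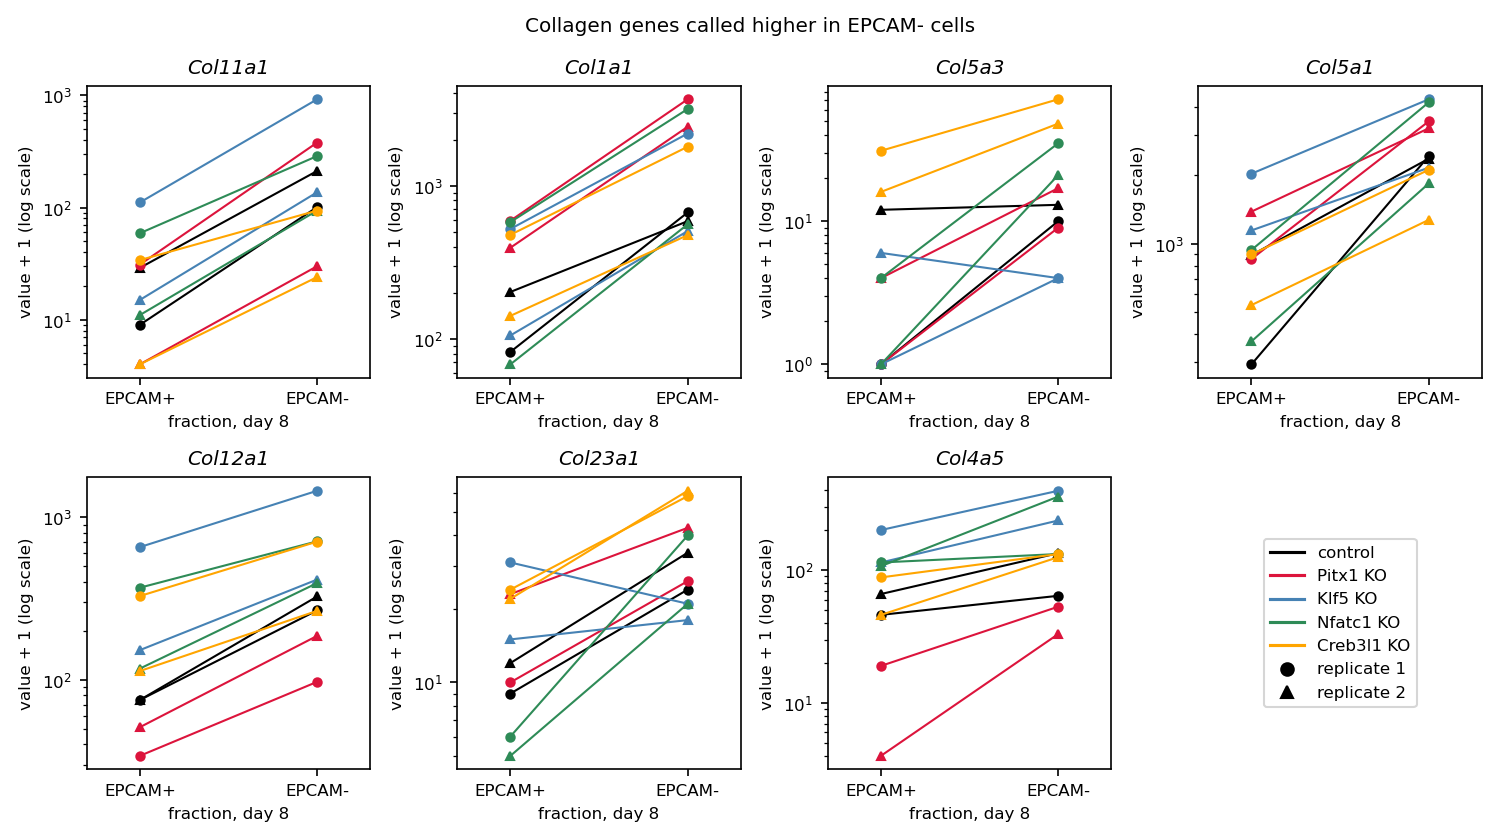
Deposited value + 1 (log scale) of the 7 collagen genes called higher in EPCAM- cells at day 8, with a line from the EPCAM+ to the EPCAM- library of the same cell line (colour) and replicate number (circle or triangle). Lines rise in 10 of 10 pairs for Col1a1, Col4a5, Col5a1, Col11a1 and Col12a1 and in 9 of 10 for Col5a3 and Col23a1.

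Further collagen genes were higher in EPCAM- cells by size and were called with a block but not in the fit of all 22 libraries without one. Col3a1, the chain of type III collagen, was 0, 5.5 and 152 in EPCAM+ cells and 3, 62.5 and 1098 in EPCAM- cells, with 10 of 10 pairs higher. Its log2 fold change of 3.31 had an SE of 1.26 (limma adjusted p = 0.157), which became 0.31 (limma adjusted p = 2.07e-07) with the replicate block within each line. Col5a2, the partner chain of Col5a1 in type V collagen, was 0, 16 and 143 against 3, 89.5 and 1296. Its log2 fold change was 2.16 (limma adjusted p = 0.188, and 1.01e-06 with that block).

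Col1a2 was 0, 18.5 and 71 in EPCAM+ cells and 14, 26 and 71 in EPCAM- cells. It was the higher in EPCAM- cells in 9 of 10 pairs, and the exception was control replicate 1, with 71 in EPCAM+ and 40 in EPCAM- cells. The log2 fold change was 1.14 (limma adjusted p = 0.203, and 0.0263 with the replicate block within each line). Col8a2, a short-chain network collagen, was 24, 51 and 290 against 15, 287 and 801, with 9 of 10 pairs higher (limma adjusted p = 0.279, and 0.000623 with that block). The block within lines also called Col4a3, Col4a4, Col6a1, Col7a1 and Col16a1, with log2 fold changes from 0.21 for Col7a1 to 1.66 for Col6a1. Without a block Col6a1 was called with voom, with a pseudocount of 5 and in 2 of the 20 fits that left out a library, and Col1a2 in 1 of those 20.

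The most abundant collagen transcripts did not pass the test in this comparison without a block. Col4a1 was 3725, 5018 and 5602 in EPCAM+ cells and 3316, 5013 and 6188 in EPCAM- cells, a log2 fold change of -0.03 (95% interval -0.24 to 0.18). Col4a2 was 1889, 2433.5 and 4041 against 1591, 2499 and 3563, a log2 fold change of -0.06 (95% interval -0.25 to 0.13). Col18a1 was 4375, 4923 and 7373 against 3275, 5351 and 7386, a log2 fold change of -0.02 (95% interval -0.25 to 0.20). In these 3 genes the fractions covered nearly the same range, and the intervals were narrow. Col8a1 had a log2 fold change of 0.09 (95% interval -0.19 to 0.37) and Col7a1 of 0.21 (95% interval -0.27 to 0.69).

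Fibrillar genes together made up 2.53, 6.49 and 11.1% (lowest, median and highest of 10) of the summed collagen level per kb of exon in EPCAM+ cells at day 8, and 9.65, 18.1 and 35.8% in EPCAM- cells. Col4a1 and Col4a2 together made up 33.0, 38.9 and 51.9% in EPCAM+ cells and 22.7, 31.8 and 44.7% in EPCAM- cells. These shares were summed over all 43 genes and are given as descriptions.

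**Figure D3:**
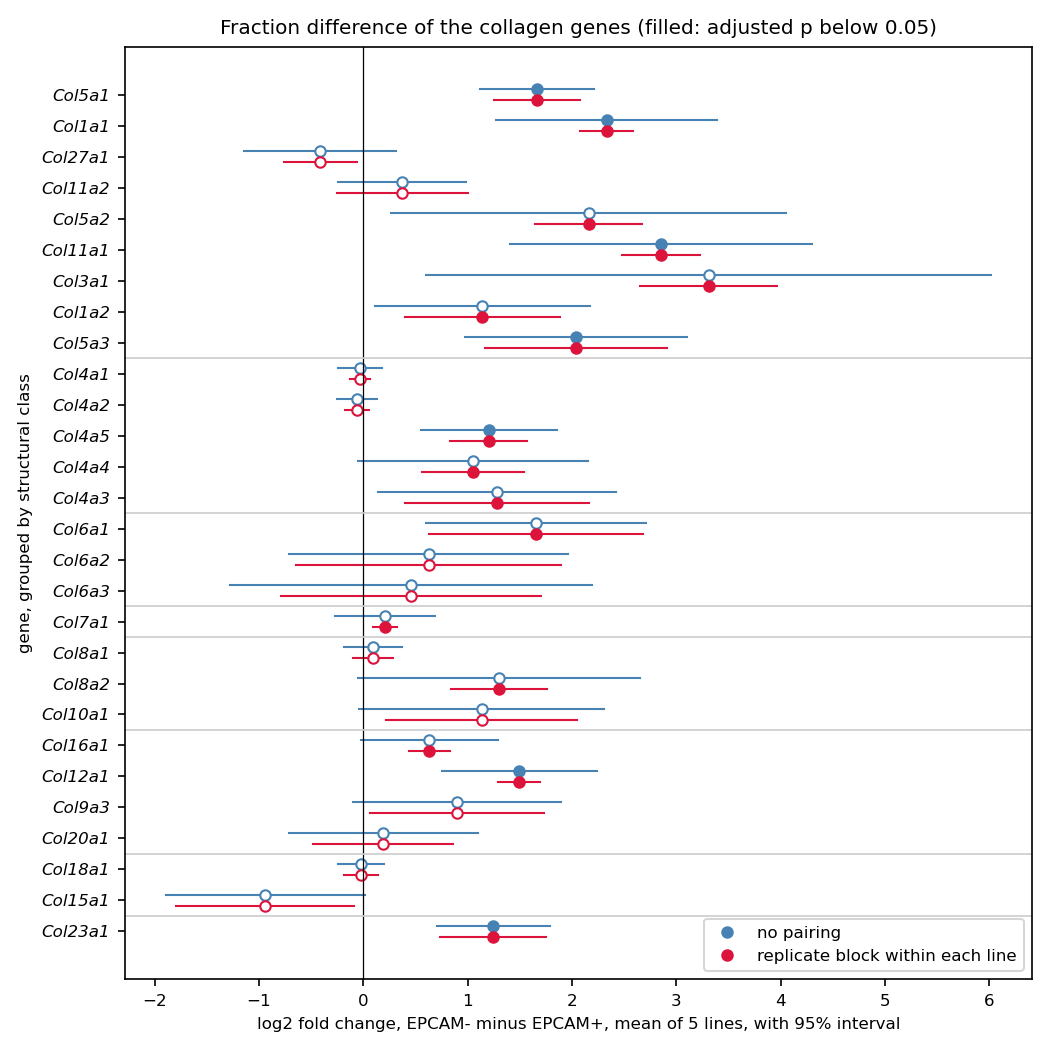
Log2 fold change of each of the 28 tested collagen genes, EPCAM- minus EPCAM+ averaged over the 5 lines, with its 95% interval, from the fit without pairing (blue) and with the replicate block within each line (red), where filled points have an adjusted p below 0.05. The 7 blue filled points lie at 1.20 or above, and the intervals of Col4a1, Col4a2 and Col18a1 are narrow and include 0.

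Within single lines, limma called 0 of the 28 collagen genes between fractions, where it called 0.644% of all genes in the control line, 0.317% in Pitx1KO, 0.286% in Klf5KO, 0.429% in Nfatc1KO and 0.291% in Creb3l1KO. At an unadjusted p below 0.05 there were 4, 7, 1, 5 and 3 collagen genes in the same order, where 7.17%, 6.1%, 3.83%, 9.2% and 4.56% of all genes were below it. With voom on recovered reads and no block the count was also 0. With the replicate block within each line 8 rose in the control line, where 3.95% of all genes rose, 9 in Pitx1KO (2.17%), 3 in Klf5KO (0.603%), 11 in Nfatc1KO (3.57%) and 3 in Creb3l1KO (1.09%). Col1a1, Col11a1 and Col12a1 rose in all 5 lines in that fit. Col4a1 and Col4a2 fell in Creb3l1KO in that fit, where 2.11% of all genes fell, and no other tested collagen gene fell in any of the 5 lines.

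Col4a2 went from 2300 and 2852 in EPCAM+ cells to 1815 and 1591 in EPCAM- cells of Creb3l1KO, so the EPCAM- libraries were the lower ones without overlap. In Pitx1KO it went the other way, from 1889 and 2255 to 2950 and 2645. Col4a1 was 4044 and 4918 against 3350 and 3316 in Creb3l1KO, and 3725 and 4826 against 4922 and 6188 in Pitx1KO. The difference between the 2 lines in the fraction difference, a contrast chosen after seeing the data, was 1.03 log2 units for Col4a2 (SE 0.29, limma adjusted p = 1) and 0.80 for Col4a1 (SE 0.31, limma adjusted p = 1). With the replicate block within each line the limma adjusted p was 0.0455 for Col4a2 and 0.0615 for Col4a1, where 0.0307% of all genes were called (0% without the block). No collagen gene was called in the difference between a knockout and the control line in the fraction difference in any of the 4 lines (0 of 28 and 0% of all genes in limma, also 0 of 28 with voom). At an unadjusted p below 0.05 it was 0 of 28 by both, where limma had 1.87% of all genes in Pitx1KO, 1.37% in Klf5KO, 1.91% in Nfatc1KO and 1.13% in Creb3l1KO. With the replicate block within each line none was called either. Each knockout line had collagen genes with an unadjusted p below 0.05 in that fit, not the same genes throughout. The share of all genes below it there is not given here. The lowest limma unadjusted p-values were 0.00085 (Col8a2, Pitx1KO), 0.0048 (Col16a1, Klf5KO), 0.0067 (Col27a1, Nfatc1KO) and 0.0049 (Col5a2, Creb3l1KO). Their limma adjusted p-values were 0.1983, 0.5297, 0.6466 and 0.9996 in the same order.

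**Figure D4:**
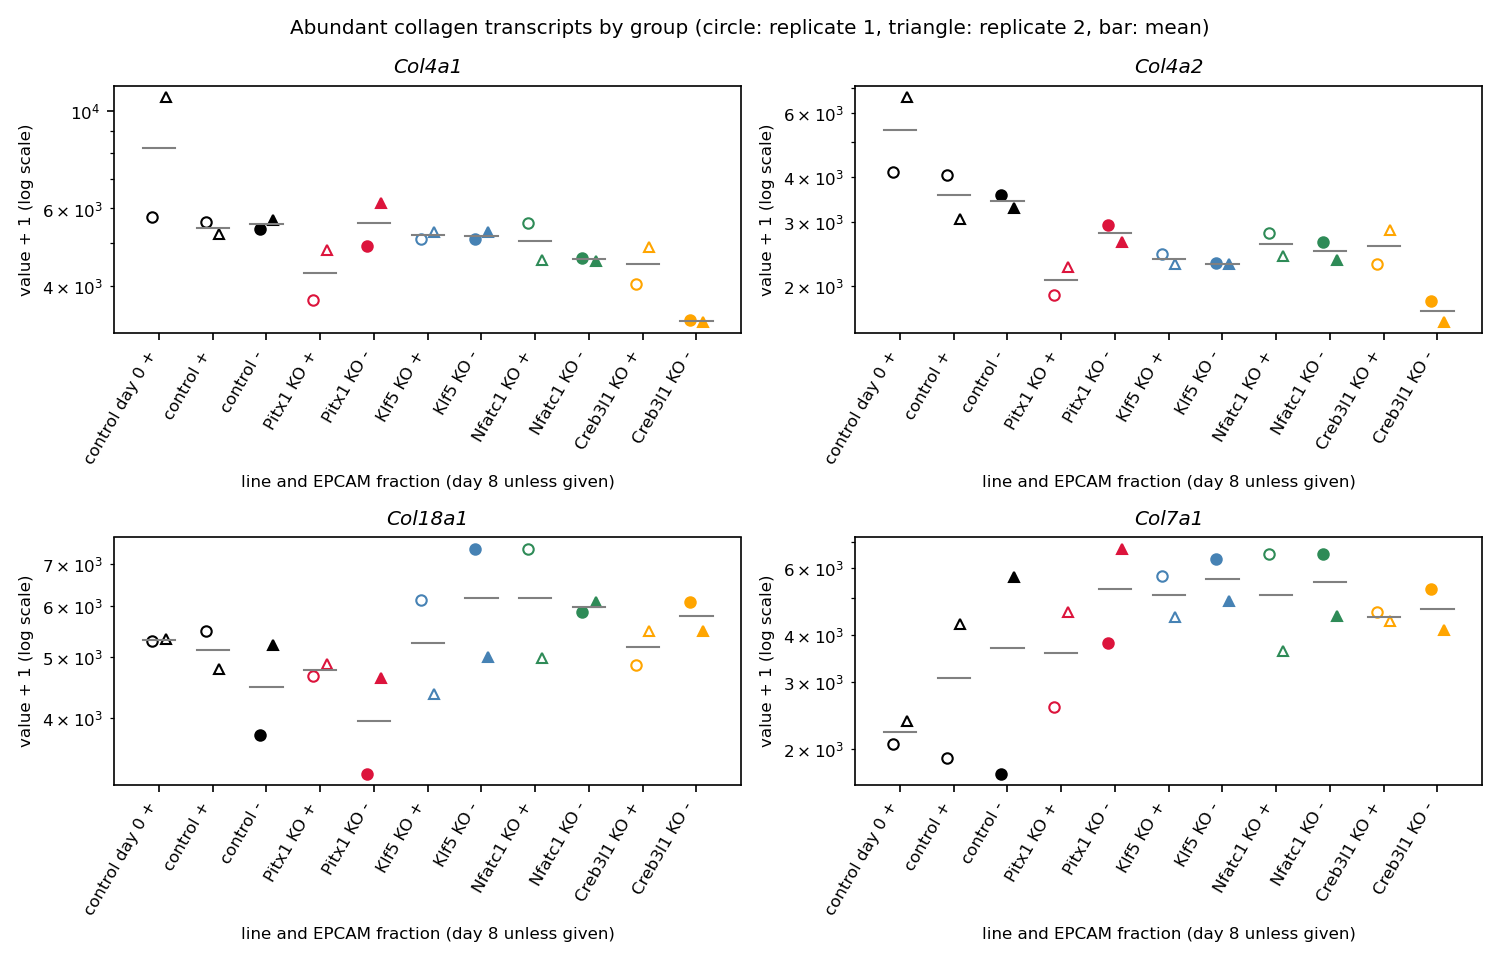
Deposited value + 1 (log scale) of Col4a1, Col4a2, Col18a1 and Col7a1 in the 11 groups, with circles for replicate 1, triangles for replicate 2, filled symbols for EPCAM- cells and a grey bar at the mean. Creb3l1KO EPCAM- cells have the lowest Col4a2 values, 1815 and 1591, and the control cells of day 0 the highest, 4109 and 6619.

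Each knockout line was then compared with the control line within a fraction at day 8, and all these comparisons share the control libraries. In EPCAM+ cells limma called 0 of 28 collagen genes in any line, where it called 0.409% of all genes in Pitx1KO, 0.0511% in Klf5KO, 0% in Nfatc1KO and 0.194% in Creb3l1KO. At an unadjusted p below 0.05 there were 3, 4, 2 and 3 collagen genes, where 10.3%, 7.0%, 7.5% and 5.99% of all genes were below it, and voom also called 0. In EPCAM- cells 1 of 28 fell in Creb3l1KO, where 0.24% of all genes fell, and 0 were called in Pitx1KO (0.915%), Klf5KO (0.153%) and Nfatc1KO (0%). In the last 3 lines named, 2, 3 and 3 collagen genes had an unadjusted p below 0.05, where 10.5%, 5.71% and 3.75% of all genes did, and voom called 0 in all 4 lines.

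The gene was Col4a2, with 3563 and 3284 in control and 1815 and 1591 in Creb3l1KO EPCAM- cells. The groups did not overlap, and the log2 fold change was -1.01 (SE 0.20, limma adjusted p = 0.0493). The call was lost when any 1 of the 10 EPCAM- libraries was left out. Without 1 of these 4, limma adjusted p-values reached 0.447, with log2 fold changes from -1.10 to -0.91. It was also lost with voom (adjusted p = 0.0683), with median-ratio scaling, with a minimum value of 50 and with only these 2 groups in the fit. The other knockout lines had 2950 and 2645 (Pitx1KO), 2308 and 2301 (Klf5KO) and 2640 and 2358 (Nfatc1KO) in EPCAM- cells, below the control values and above those of Creb3l1KO, and none of these 3 differences was called.

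Some collagen genes differed between a knockout line and the control line by size, without overlap, and did not pass the test. In EPCAM- cells Col8a2 was 308 and 604 in control and 15 and 45 in Pitx1KO, a ratio of means of 15.2 with the control higher (log2 -3.99, limma adjusted p = 0.275). Col1a1 was 667 and 585 against 3666 and 2424 in the same comparison, a ratio of 4.86 with Pitx1KO higher (limma adjusted p = 0.520). Col27a1, a fibrillar collagen known from cartilage, was 9 and 26 in control and 42 and 146 in Pitx1KO (limma adjusted p = 0.235). It was also the higher without overlap in the EPCAM- cells of Klf5KO (80 and 88), Nfatc1KO (98 and 52) and Creb3l1KO (75 and 37).

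In EPCAM+ cells Col4a5 was 45 and 65 in control and 18 and 3 in Pitx1KO (log2 -2.66, limma adjusted p = 0.111). Col27a1 was 11 and 71 against 122 and 244 there (limma adjusted p = 0.191). Col12a1 was 74 and 74 in control and 653 and 151 in Klf5KO (log2 2.07, limma adjusted p = 0.618). Of the other genes named by the rule for each knockout comparison, Col5a2 was the furthest apart, with 149 and 30 in control and 13 and 3 in Creb3l1KO EPCAM- cells (limma adjusted p = 0.928). The 2 libraries of 1 group were far apart in Col5a2 and in Col3a1, and all of these values rest on 2 libraries against 2.

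**Figure D5:**
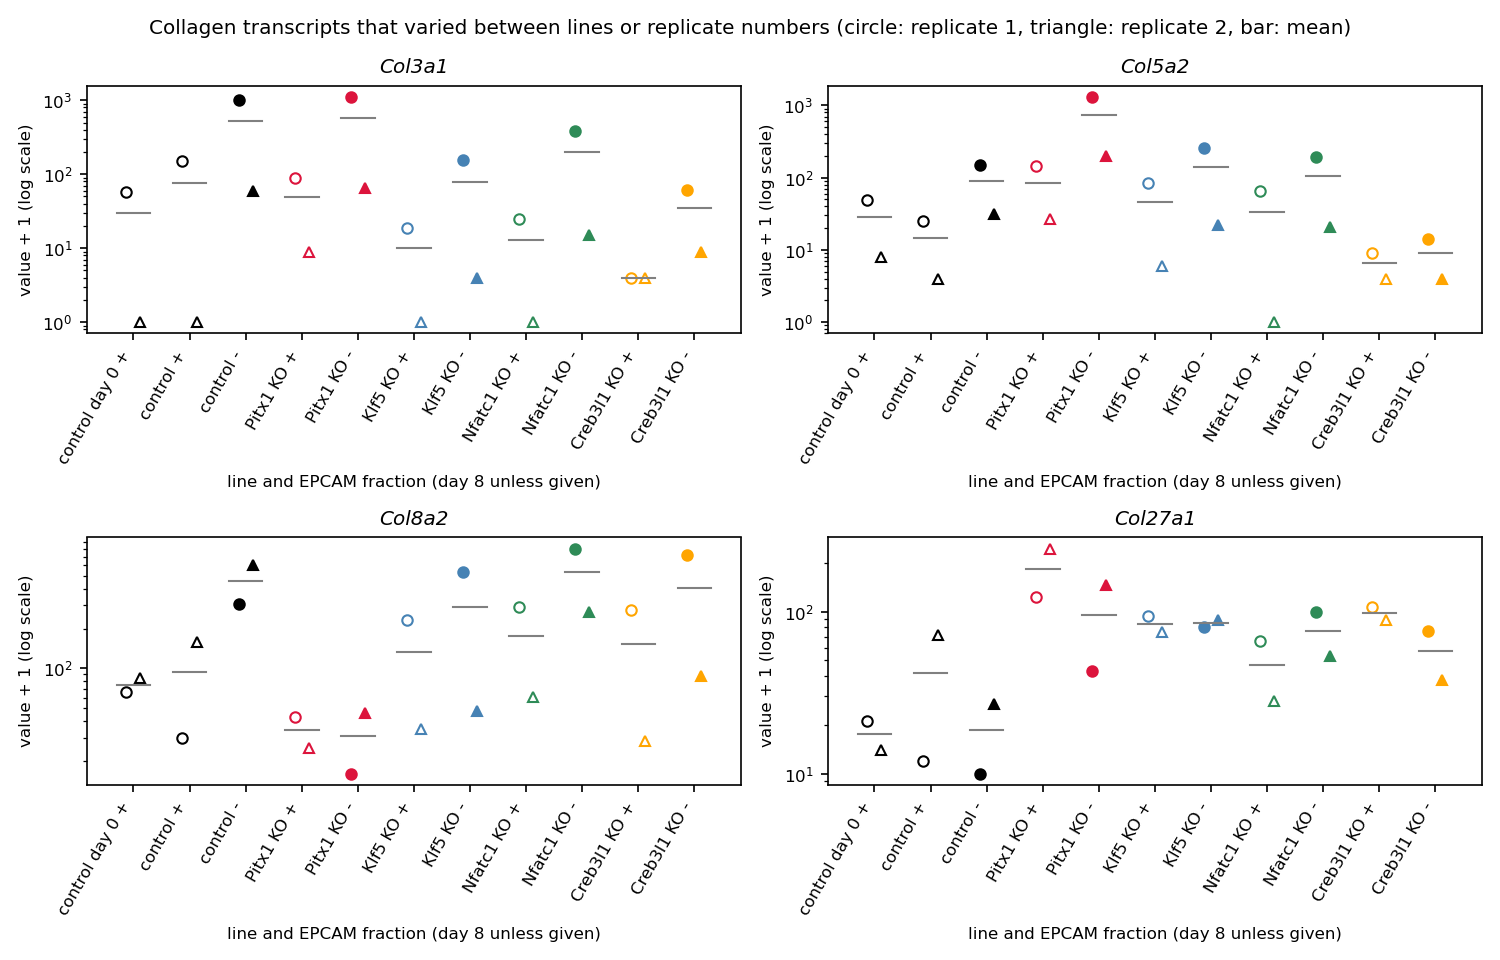
Deposited value + 1 (log scale) of Col3a1, Col5a2, Col8a2 and Col27a1 in the 11 groups, with circles for replicate 1, triangles for replicate 2, filled symbols for EPCAM- cells and a grey bar at the mean. Circles lie above triangles in every group for Col5a2 and in 10 of 11 groups for Col3a1, and Col8a2 is lowest in Pitx1KO EPCAM- cells at 15 and 45.

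The 2 replicate numbers, which the labels call Sample1 and Sample2 under a batch tag, were compared with each other over the 11 groups, a contrast added after seeing the data. Of 28 collagen genes 5 were called between the numbers, where 20.2% of all genes were, so the count was close to that of genes at large. The size was not, for a pair of neighbours on chromosome 1 that lie 24614 bases apart and are read from opposite strands. Col3a1 was the higher in replicate 1 in 10 of 11 groups, as with 1001 and 58 in control and 1098 and 65 in Pitx1KO EPCAM- cells. Its log2 difference was 4.20 (SE 0.49, limma adjusted p = 7.34e-05), and 2 of all 19569 genes, itself included, differed as much. Col5a2 was the higher in replicate 1 in 11 of 11 groups, by 2.93 log2 units (SE 0.33, limma adjusted p = 2.82e-05). Within groups the 2 genes had a Pearson correlation of 0.92 over the 22 libraries, as a description. Col11a1 (1.75), Col1a1 (1.30) and Col4a4 (1.23) were also higher in replicate 1, and Col1a2 was the higher there in 4 of 11 groups.

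Control cells of day 0 were EPCAM+ only. Between day 8 and day 0 in EPCAM+ control cells limma called 0 of 28 collagen genes and 0% of all genes, with 4 collagen genes at an unadjusted p below 0.05 (4.25% of all genes) and 0 called by voom. Col4a2 was 4109 and 6619 at day 0 and 4041 and 3067 at day 8, and Col4a1 was 5749 and 10719 against 5602 and 5241. Both genes were lower at day 8 without overlap (log2 -0.57 and -0.53, limma adjusted p = 1 for each).

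Between EPCAM- cells of day 8 and EPCAM+ cells of day 0 in the control line, 2 of 28 collagen genes rose and 0 fell, where 0.685% of all genes rose and 1.32% fell. Col23a1 was 0 and 0 at day 0 and 23 and 33 in EPCAM- cells, at least 3.19-fold higher with 3 reads per library in place of 0 (limma adjusted p = 0.000255). Col1a2 was 0 and 0 against 40 and 14, at least 3.08-fold higher (limma adjusted p = 0.0362). The call of Col1a2 was lost when any 1 of the 4 libraries was left out, whereas Col23a1 was called in all 4 such fits. The groups compared here differ in day as well as in fraction. Control EPCAM+ cells of day 8 had 71 and 9 for Col1a2, and 8 and 11 for Col23a1. Values above those of day 0 were therefore not confined to EPCAM- cells. Neither gene was called between the days in EPCAM+ cells. Between the fractions of the control line, neither was called without a block or with the replicate block within each line. With that block the limma adjusted p was 0.9675 for Col1a2 and 0.1275 for Col23a1. Creb3l1, which encodes a transcription factor known for its part in collagen production, was 137 and 26 in the control EPCAM- libraries of day 8. In EPCAM- cells of Creb3l1KO Col1a2 was 52 and 37, and it was not called against the control line there. The part of Creb3l1 in the values of Col1a2 was not tested further. A replicate block added Col3a1 (57 and 0 against 1001 and 58, limma adjusted p = 0.0234), where 1.94% of all genes rose.

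Genes that act on collagen chains were followed through lists written with earlier results of these data known. Of 17 tested genes for modification and folding in the endoplasmic reticulum, 4 rose in EPCAM- cells at day 8 and 0 fell, where 2.74% of all genes rose and 3.49% fell. Serpinh1, the collagen chaperone HSP47, was 3647, 4514 and 5999 (lowest, median and highest of 10) in EPCAM+ cells and 5256, 6610 and 8429 in EPCAM- cells (log2 0.57, SE 0.10, limma adjusted p = 0.00156). P3h1, a prolyl 3-hydroxylase, was 51, 113 and 179 against 156, 226 and 354 (log2 1.10, limma adjusted p = 0.00181). The others were the lysyl hydroxylase Plod1 (log2 0.42) and P4ha1, a subunit of prolyl 4-hydroxylase (log2 0.29). With the replicate block within each line 9 of 17 rose, where 13.6% of all genes did.

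Of 17 genes for export, processing and cross-linking, 3 rose and 0 fell, against the same 2.74% and 3.49% of all genes. With the block within lines 7 rose and 1 fell, where 13.6% of all genes rose and 9.14% fell. Lox, the cross-linking enzyme lysyl oxidase, was 43, 248 and 727 in EPCAM+ cells and 272, 526 and 2279 in EPCAM- cells (log2 1.67, SE 0.38, limma adjusted p = 0.0154). Pcolce, an enhancer of the removal of the procollagen C-propeptide, had a log2 fold change of 0.72, and Sec24d, a coat protein of the vesicles that carry procollagen, 0.39. Of 8 collagen receptors 1 rose and 1 fell: the integrin chain Itga11 rose (log2 1.65, limma adjusted p = 0.0420) and Cd44 fell (log2 -0.41, limma adjusted p = 0.00701).

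Partners of collagen IV in the basement membrane went both ways. Of 12 tested, 2 rose and 4 fell in EPCAM- cells, where 2.74% of all genes rose and 3.49% fell. Among those that fell were the laminin chains Lama3 (log2 -2.83, SE 0.21, limma adjusted p = 4.76e-07) and Lama5 (log2 -0.52), and the proteoglycan Agrn (log2 -0.45). The laminin chain Lamc1 (log2 0.41) and Sparc, a collagen-binding matrix protein (log2 0.74), rose. Of 15 other matrix genes 4 rose and 0 fell, against those same shares of all genes, among them Postn, which encodes periostin (0, 5 and 40 against 8, 39.5 and 337, log2 2.66, limma adjusted p = 0.0103), and Vcan, a large proteoglycan (log2 0.82, limma adjusted p = 0.000904). Matn2 (log2 1.10) and Fbln1 (log2 0.82) were the other 2, and Fbln1 also fell in EPCAM+ cells of Pitx1KO (log2 -2.31, limma adjusted p = 0.0241).

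Fibroblasts were checked as another source of collagen transcripts. Fap was 0 in all 22 libraries, Pi16 was at most 5 and Thy1 at most 3. In the EPCAM+ and EPCAM- fractions of control replicate 1 at day 8, Dcn was 61 and 35, and Lum and Dpt were each 6 and 3. Elsewhere Dcn was at most 8, and Lum and Dpt were 0. In the same fractions of control replicate 1, Col1a2 was 71 and 40, Col6a3 was 27 and 40, and Col6a2 was 19 and 15. Col1a2 was also 71 in Pitx1KO EPCAM- replicate 2, where Dcn, Lum and Dpt were 0. Col6a3 was also 20 in control replicate 1 of day 0, where these 3 markers were 0. Pdgfra was present in both fractions and was not called (log2 0.14, limma adjusted p = 0.841). Pdgfrb moved with the fibrillar collagens, at 0, 6.5 and 18 in EPCAM+ cells and 15, 68.5 and 265 in EPCAM- cells (log2 3.43, limma adjusted p = 0.00269). The sum of 8 fibroblast markers, leaving out Col1a1 and Col3a1, was 73, 137.5 and 297 against 102, 215.0 and 500. Of 6 leukocyte markers Cd3e was 0 in all libraries, Ptprc was at most 9, Itgam at most 6 and Adgre1 at most 3, while Cd68 was 26 to 97 and Csf1r 91 to 277. Their sum was 167, 247.5 and 360 in EPCAM+ cells of day 8 and 140, 182 and 272 in EPCAM- cells, and Csf1r was called lower in EPCAM- cells with the block within lines (log2 -0.56, limma adjusted p = 0.000367, and 0.0722 without it). Of 5 endothelial markers Emcn and Tek were at most 5, Cdh5 was 0 to 31, Kdr 0 to 269 and Pecam1 53 to 157. Their sum was 69, 138.5 and 203 in EPCAM+ and 65, 150 and 431 in EPCAM- cells. Cdh5 was called higher in EPCAM- cells with the same block (log2 1.30, limma adjusted p = 0.0298, and 0.140 without it). The sum of 5 pericyte and smooth muscle markers was 13, 25 and 153 against 3, 16 and 79, but its members went both ways. Notch3 was 0, 9.5 and 131 against 0, 0 and 29 (log2 -2.28, limma adjusted p = 0.0372). Des was 0, 0 and 8 against 0, 6 and 32 and was not called (log2 1.32, limma adjusted p = 0.299). Cspg4 was at most 23, Myh11 at most 14 and Rgs5 at most 5 in any library. The part of any of these cells in the collagen values was not tested. In bulk libraries fewer cells of a kind and less RNA per cell cannot be told apart.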

How the data were processed

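Gene values were used as deposited. The authors deposited what the labels call normalised counts, and the values are treated here as a score, since how they were normalised is not given in the sources used here. Within a library 99.8 to 99.9% of the values above 0 equalled a whole number of reads times 1 step, rounded up. The submitters' processing notes name FastQC, Trimmomatic, STAR, Picard and HTSeq and the builds GRCm38 and mm10, without versions. RNA was extracted with the RNeasy micro kit and libraries were made with the Ovation Solo RNA-seq system, per the labels' protocols.

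Genes with a value of 10 or more in 2 or more libraries were tested (19569) with limma 3.58.1 in R 4.3.3 on log2(value + 1). The fit used all 22 libraries, 1 mean per group, and a robust variance trend (11 residual and a median of 5.63 prior degrees of freedom). Benjamini-Hochberg adjustment was made over all genes of each contrast, and a gene was called at an adjusted p below 0.05. Fold changes of low genes depend on the added 1, which is less than 1 read, and a value of 0 can make them larger than the ratio of means. Between fractions of Nfatc1KO, Col1a2 was 0 and 20 against 24 and 25, with a log2 fold change of 2.48 and a ratio of means of 2.45. Gene positions and exon lengths came from GENCODE M21, which held 49326 of the 49671 identifiers, and length is the union of a gene's exons. The procedure was run on simulated data without a difference between replicate numbers, so that run does not cover such a difference in these data. Python 3.11.15 with pandas 2.3.3, numpy 2.4.6 and matplotlib 3.10.9 did the rest.

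Replicate numbers match a batch tag in the labels, so libraries of 1 number were taken as paired in the fits with a replicate block. The main fit used no pairing, and limma adjusted p-values given without mention of a block come from it. As a check, the difference between replicates 1 and 2 was taken for each gene in each group and correlated for every combination of 2 groups: 36 of 55 correlations exceeded 0.1 (median 0.15, range -0.13 to 0.38), and those between the fractions of a line were 0.17 to 0.38. Blocked values stand beside results whose call they change.

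The text names Col1a2, every collagen gene called, the highest member per kb of each class, and for each comparison up to 5 uncalled collagen genes with the largest fold change among those with a mean of at least 50 and groups without overlap. It also names up to 4 called genes of each related list. A gene of these lists that the rule would name is not reported here. The collagen genes, classes and lists were chosen with earlier results of these data known. Alternatives were a pseudocount of 5, no filter, a minimum of 50, median-ratio scaling, voom on recovered reads, only the compared groups, 2 kinds of replicate block, and each library left out.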

Additional observations from a re-analysis of the deposited data

Results flagged for a closer look

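The fraction difference of 4 abundant collagen genes went opposite ways in a pair of lines, with both libraries of each group on the same side. As log2 EPCAM- minus EPCAM+, Col4a2 was 0.44 in Pitx1KO and -0.59 in Creb3l1KO, and Col4a1 was 0.38 and -0.42. Both differences were tested: limma adjusted p = 1 for each without a block, and 0.0455 for Col4a2 and 0.0615 for Col4a1 with the replicate block within each line. Col18a1 was -0.29 in Pitx1KO and 0.17 in Creb3l1KO (difference -0.46, limma adjusted p = 1, and 0.871 with that block). Col8a1 was -0.02 in the control line and 0.15 in Klf5KO (difference 0.17, limma adjusted p = 1, and 0.986 with that block). These pairs of lines were picked for their opposite signs.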

How the results depend on the processing

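Over the settings run, each library left out included, all 7 collagen genes called higher in EPCAM- cells kept their direction, though not every call. The counts below are given without the share of all genes called. That share stands above for some settings, and by line, but not for genes called in at least 1 line. Where it is missing, a count cannot be set against genes at large. Of 28 collagen genes 7 were called over the 5 lines, and 16 with the replicate block within each line, also 16 with that block and voom on recovered reads. Leaving out 1 of 20 libraries gave 4 (without Creb3l1KO EPCAM+ replicate 2) to 8. In single lines the count was 0, and 15 collagen genes were called in at least 1 line with the replicate block within each line, 10 with that block and voom, and 0 to 1 with a library left out (Col5a1 in the control line, without control EPCAM+ replicate 2). For knockout against control, the count in EPCAM+ cells was 0, and 0 to 1 with a library left out (Col27a1, without control EPCAM+ replicate 2). In EPCAM- cells it was 1, and 0 with a minimum of 50, median-ratio scaling, voom and only the compared groups, and 0 to 0 with a library left out. Between EPCAM- cells of day 8 and control cells of day 0 it was 2, and 1 with a pseudocount of 5 and with voom, 4 with only the compared groups (Col1a1, Col5a1, Col8a2 and Col11a1), and 1 to 3 with a library left out. The 3, without day 0 replicate 1, were Col23a1, Col4a1 and Col4a2.

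Fold changes near 0 changed sign when a library was left out: over the 20 fits the log2 fold change between fractions ran from -0.0813 to 0.032 for Col18a1, -0.0672 to 0.0075 for Col4a1, -0.0037 to 0.1887 for Col8a1, -0.0658 to 0.4511 for Col20a1 and -0.0807 to 0.9908 for Col6a3, none of them called. The causes of these changes were not tested. A value of 10 stood for 3 to 4 reads, so Col5a3, Col1a2 and Col23a1 rest on few reads in many libraries, and each single-line comparison rests on 2 libraries against 2.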

Other observations

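The ratio of the Col4a1 value to the Col4a2 value, 2 chains of 1 collagen IV molecule whose genes start 21 bases apart on opposite strands of chromosome 8, was 1.39 to 1.72 in the 6 control libraries (median 1.57) and 1.67 to 2.34 in the 16 knockout libraries (median 1.98). It was not tested, and the ranges overlap. Their log2 values had a Pearson correlation of 0.88 over the 22 libraries and 0.78 within groups. The other collagen genes that start head to head are Col4a3 and Col4a4, 72 bases apart, with a correlation of 0.41, and Col4a5 and Col4a6, 1309 bases apart, with -0.14, where Col4a6 was at most 3. These values are descriptions.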
